A study of Homo sapiens with 18 samples.

Results

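R-loops far from any gene were taken as the windows of 6 DRIP–seq peak lists whose midpoint lay more than 10 kb from every gene of any type in GENCODE 44, measured from gene start to gene end. There were 104590 such gene-far windows among 757528 windows on chromosomes 1 to 22 and X, and 652938 windows lay inside a gene or within 10 kb of it. DRIP–seq immunoprecipitates sonicated genomic DNA with the S9.6 antibody, which binds RNA/DNA hybrids, and each deposited window is 500 bp around a summit of a peak. MCF10A, a nontumorigenic human breast epithelial line, was used as WT cells and as an APOBEC3B (A3B) KO line, and both received either DMSO alone or 25 ng/ml of PMA over 2 h or 6 h. PMA activates protein kinase C, and A3B is a DNA cytosine deaminase. The KO line was made with CRISPR by a deletion that fuses the neighbouring APOBEC3A and APOBEC3B genes, so the APOBEC3A locus is altered in it too. Anti-GFP ChIP–seq was done in other MCF10A cells, TREx-A3B-eGFP. They received DMSO without doxycycline, doxycycline at 1 µg/ml for 24 h and DMSO, or the same doxycycline and PMA for 2 h. Each condition was 1 library, and for DRIP–seq and ChIP–seq alike it was made from pooled immunoprecipitations. There is therefore no replicate check, no test of a difference between conditions is given, and the 95% Wilson intervals cover counting error only.

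R-loops form when nascent RNA pairs with its template strand and leaves the other DNA strand single. They are best known at promoters, at gene ends and over GC-rich or repetitive transcribed sequence. Far from genes, transcription comes from enhancers, unannotated transcripts, pericentromeric repeats and repeats such as Alu, whose copies end in an A-rich tail. RNA/DNA hybrids of purine-rich RNA with pyrimidine-rich DNA, such as poly(rA) with poly(dT) or GAA with TTC, are known to be stable.

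Most of the strongest gene-far loci called in all 6 lists held 1 of 3 kinds of simple sequence, and those that carry the results below were read from hg38, each on the plus strand. The first is a pericentromeric satellite on chromosome 4, shown at the strongest locus of all, with each ATTCC copy in capitals.
chr4:49134072-49134191: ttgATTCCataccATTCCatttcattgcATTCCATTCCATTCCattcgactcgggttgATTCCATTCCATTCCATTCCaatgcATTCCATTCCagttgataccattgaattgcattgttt
The second kind is the GAA triplet repeat, or TTC on the other strand, shown at a gene-far locus of this class, not its strongest, 198 kb from SEMA3A, with the longest perfect repeat in capitals.
chr7:84690955-84691199: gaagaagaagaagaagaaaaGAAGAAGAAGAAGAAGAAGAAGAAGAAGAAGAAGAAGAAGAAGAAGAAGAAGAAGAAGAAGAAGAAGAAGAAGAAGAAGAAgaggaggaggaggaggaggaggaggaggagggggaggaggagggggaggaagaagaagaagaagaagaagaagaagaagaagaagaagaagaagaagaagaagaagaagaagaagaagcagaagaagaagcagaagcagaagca
The third kind is a long run of A or T, which most strong loci outside satellites carried. The 2 strongest loci whose run is of A are shown from the run to the window centre, with the run in capitals.
chr17:32396407-32396625: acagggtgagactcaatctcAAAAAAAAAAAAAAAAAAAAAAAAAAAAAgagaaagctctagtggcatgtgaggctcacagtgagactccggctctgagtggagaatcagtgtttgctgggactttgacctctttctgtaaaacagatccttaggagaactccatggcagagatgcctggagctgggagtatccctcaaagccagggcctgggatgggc
chr3:33246632-33246864: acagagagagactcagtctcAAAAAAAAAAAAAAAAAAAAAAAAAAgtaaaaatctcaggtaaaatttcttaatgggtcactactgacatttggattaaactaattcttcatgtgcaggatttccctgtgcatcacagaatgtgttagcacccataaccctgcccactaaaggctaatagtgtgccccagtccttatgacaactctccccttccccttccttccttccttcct
The median window centre lay 155 and 170 bases to the right of the middle of these runs.

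Gene-far windows were a minority of every list and their share was higher in each PMA list than in the DMSO list of the same line. In WT they were 10474 of 91894 windows with DMSO (11.4%, Wilson 11.2 to 11.6), 15757 of 111771 at 2 h of PMA (14.1%, 13.9 to 14.3) and 25474 of 165877 at 6 h (15.4%, 15.2 to 15.5). In A3B KO they were 11991 of 98432 with DMSO (12.2%, 11.98 to 12.39), 15888 of 120428 at 2 h (13.2%, 13.003 to 13.4) and 25006 of 169126 at 6 h (14.8%, 14.6 to 14.955). The gene-far genome covers 775.3 Mb, which is 26.6% of the sequence without gaps, so gene-far windows were sparser than the rest. In WT with DMSO there were 13.5 windows per Mb of gene-far sequence and 38.1 per Mb elsewhere. List length grew with PMA too, and the number of reads in each library is unknown, so the growth of the lists and sequencing depth cannot be told apart. With each list held to its strongest 90000 windows by q value, the shares were 11.4%, 14.1% and 15.9% in WT and 12.1%, 13.4% and 15.2% in A3B KO.

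**Figure D1:**
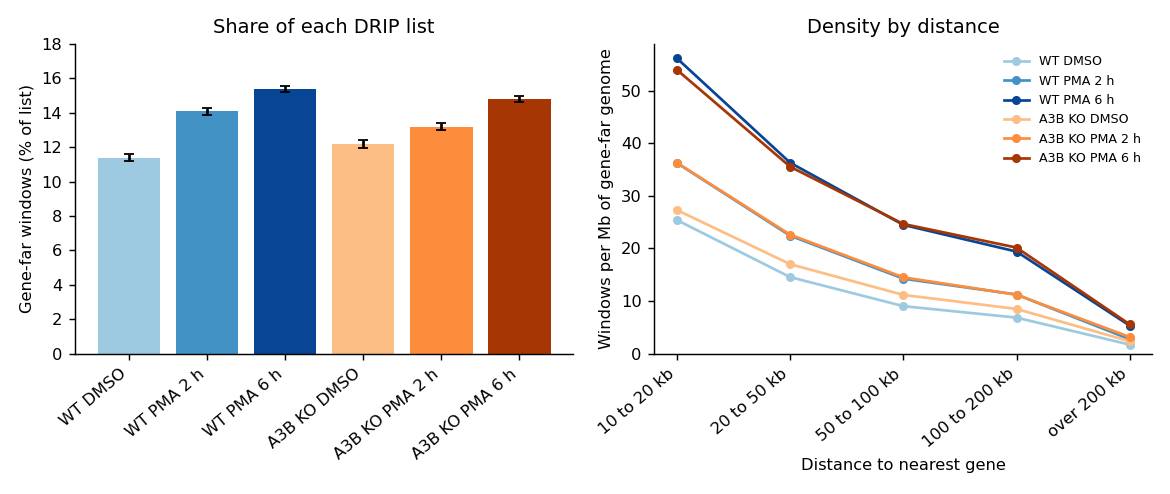
The bars give the share of gene-far windows in each of the 6 DRIP lists in percent, with 95% Wilson intervals, and rise from 11.4% to 15.4% in WT and from 12.2% to 14.8% in A3B KO. The lines give gene-far windows per Mb of gene-far genome by distance to the nearest gene, and fall in every list from 10 to 20 kb to over 200 kb.

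Gene-far windows were about as strong as the others. The fold enrichment is the summit signal over the local background of the input, and its median was 4.41 in gene-far windows and 4.32 in all windows for WT with DMSO. At 2 h and 6 h in WT the gene-far medians were 4.82 and 5.45 against 4.64 and 5.26 for all windows. In A3B KO they were 4.37, 5.18 and 4.83 in DMSO, 2 h and 6 h, against 4.31, 5.01 and 4.64. The gene-far share of windows at a fold of 10 or more was 8.91% in WT with DMSO (151 of 1695) and 7.63% in A3B KO (129 of 1690). In WT the 2 h and 6 h lists gave 15.6% and 15.7%, and those of A3B KO gave 12.6% and 15.9%. Among these strong windows, gene-far ones were below their share of the whole list in both DMSO lists and in A3B KO at 2 h, and above it in the other PMA lists.

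The median distance of gene-far windows to the nearest gene was 22.8 to 25.4 kb over the 6 lists, and the density fell with distance. In WT with DMSO it was 25.4 windows per Mb at 10 to 20 kb from the nearest gene, 14.5 at 20 to 50 kb, 9.01 at 50 to 100 kb, 6.83 at 100 to 200 kb and 1.69 beyond 200 kb. In WT at 6 h of PMA the same bins held 56.1, 36.3, 24.5, 19.4 and 5.29 per Mb. The densities in A3B KO at 2 h of PMA, 36.3, 22.6, 14.5, 11.2 and 3.13, were close to those in WT at 2 h, 36.2, 22.4, 14.2, 11.2 and 2.71. Windows more than 100 kb from a gene made up 7.46% of gene-far windows in WT with DMSO and 9.41% in A3B KO at 6 h, the lowest and the highest of the 6 lists. Windows just inside and just outside the limit had similar folds: in WT with DMSO, 764 windows at 9 to 10 kb had a median fold of 4.36, and 724 at 10 to 11 kb had 4.30. The share with a run of at least 20 A or T bases, described below, was lower just outside the limit in each of the 6 lists, at 41.6% inside and 37.2% outside in WT with DMSO, 44.1% and 39.1% in A3B KO at 2 h, and 38.5% and 37.6% in A3B KO at 6 h.

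Pooled over distance, windows were split almost evenly between the sides of the nearest gene. Between 50.3% and 51.1% of gene-far windows lay beyond the end of the nearest gene, where 52.3% of the gene-far genome lies, and the rest lay before its start. At 100 to 200 kb the density was higher before gene starts in all 6 lists, with 8.33 windows per Mb against 5.47 beyond gene ends in WT with DMSO and 23.2 against 17.4 in A3B KO at 6 h. Density also differed between chromosomes. In WT with DMSO there were 48.7 gene-far windows per Mb of gene-far sequence on chromosome 19, 39.1 on chromosome 17 and 34.0 on chromosome 22, against 7.69 on chromosome 18, 7.99 on chromosome 13 and 8.65 on chromosome X. In A3B KO with DMSO the same chromosomes had 45.3, 37.2, 32.2, 9.73, 9.33 and 11.4 per Mb. A second annotation, RefSeq for GRCh38.p14, placed 12.2% of the gene-far windows of WT with DMSO inside a gene (1277 windows, 964 of them in a long noncoding RNA gene), where 11.7% of the gene-far genome lies inside a RefSeq gene. In the other 5 lists this share was 11.8% to 12.2%.

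Long runs of A or T were the most frequent feature of gene-far windows beyond their position. A run of at least 20 identical bases, A or T on the plus strand, was found in 39.9% of gene-far windows in WT with DMSO (4176 of 10474, Wilson 38.9 to 40.8), 40.9% at 2 h (40.1 to 41.7) and 40.9% at 6 h (40.3 to 41.5). In A3B KO it was found in 40.4% with DMSO (39.6 to 41.3), 43.4% at 2 h (42.7 to 44.2) and 39.2% at 6 h (38.6 to 39.8). By comparison, 2.01% of all 1549875 tiles of 500 bp in the gene-far genome held such a run (31082 tiles), which makes the windows 19.5 to 21.7 times richer. Windows in or near genes held runs almost as often, in 33.6% of WT windows with DMSO and in 34.0% to 38.2% of the windows of the other lists, so the feature is not particular to gene-far windows. The anti-GFP ChIP–seq lists are far shorter and come from crosslinked chromatin. Their gene-far regions held runs about as often as gene-far tiles: 1.99% without doxycycline (10 of 503), 1.34% with doxycycline and DMSO (6 of 447) and 2.74% with doxycycline and PMA (12 of 438). The part that S9.6 binding, library preparation or the alignment of repeats had in these runs was not tested.

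The share with a run rose with fold enrichment in every list. In WT with DMSO it was 17.0% in the lowest quintile of gene-far windows by fold, then 28.0%, 38.3% and 52.0%, and 64.1% in the highest quintile. At 6 h of PMA it went from 10.2% to 74.2% in WT and from 10.2% to 73.2% in A3B KO. The median fold of gene-far windows was 5.19 with a run and 3.96 without in WT with DMSO, and 6.89 and 4.54 at 6 h. The median number of fragments at the summit was 23 with a run and 18 without in WT with DMSO, and 36 and 24 at 6 h.

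Counted over the gene-far genome, tiles with longer runs were called more often. Of gene-far tiles whose longest run was under 10 bases, 3.06% overlapped a DRIP window of any list. This share was 10.96% for 10 to 14 bases, 28.0% for 15 to 19, 46.8% for 20 to 24, 57.4% for 25 to 29 and 61.3% for 30 or more (2055 of 3355 tiles, Wilson 59.6 to 62.9). For tiles called in all 6 lists it rose from 0.157% under 10 bases to 7.09% at 30 or more. A run of 20 or more bases was called less often far from genes: 59.0% of such tiles at 10 to 20 kb from a gene overlapped a window of any list, 51.5% at 20 to 50 kb, 44.7% at 50 to 100 kb, 40.6% at 100 to 200 kb and 37.6% beyond 200 kb (338 of 900). Tiles with no such run fell more in proportion over the same bins, from 7.09% to 0.774%, though less in percentage points.

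**Figure D2:**
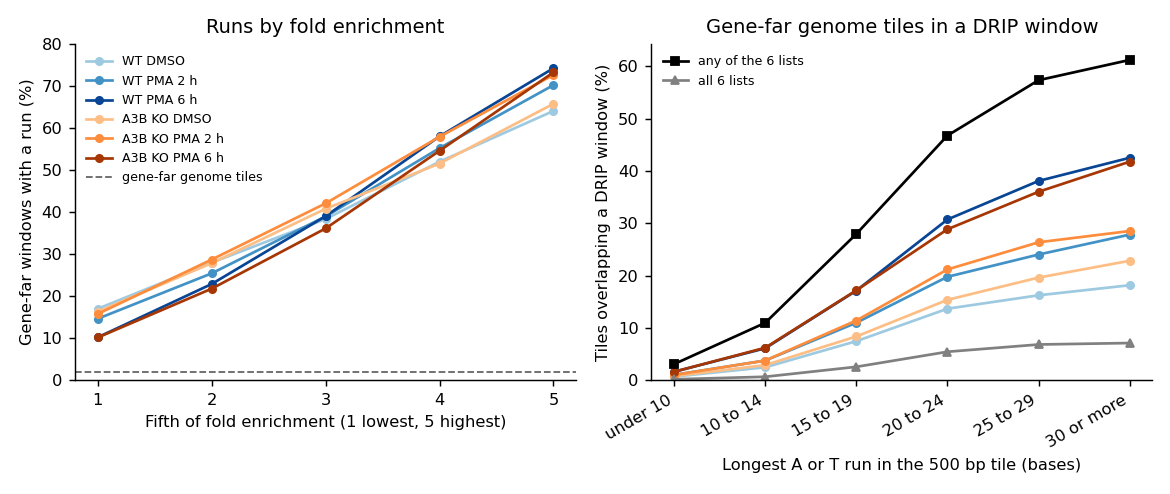
On the left, the share of gene-far windows with an A or T run of at least 20 bases is drawn in percent for each quintile of fold enrichment and rises in all 6 lists, from 10.2% to 17.0% in the lowest quintile to 64.1% to 74.2% in the highest, above the 2.01% of genome tiles (dashed). On the right, the percent of gene-far 500 bp tiles that overlap a DRIP window is drawn by the longest run in the tile, for each list in the colours of the left plot, for any list (black) and for all 6 (grey).

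The runs lay on 1 side of the window centre, and the side depended on the base. In WT with DMSO, 92.1% of the A runs within 250 bp of the centre of a gene-far window lay to its left (2236 runs), and 94.6% of the T runs lay to its right (1913 runs). Since a T run is an A run on the minus strand, the centre lay 3′ of the run, read on the strand with the A bases, for 93.2% of runs (Wilson 92.5 to 93.9). Both PMA lists of WT gave 93.7%, and A3B KO gave 93.6%, 94.3% and 94.7% with DMSO, 2 h and 6 h of PMA. In genome tiles it was 50.8%. Windows in or near genes gave 92.7% to 93.6%. Among the A runs to the left of the centre, the median offset was -170.5 bp in WT with DMSO, with quartiles of -186.0 and -155.0, and -134.0 bp at 6 h, with quartiles of -141.5 and -128.0. Left-hand A runs in genome tiles had a median of -127.0 bp and quartiles of -189.12 and -68.5. Among the T runs to the right of the centre the spread was wider, with a median of 115.5 bp and quartiles of 74.0 and 156.5 in WT with DMSO, and a median of 92.0 bp and quartiles of 59.5 and 121.5 at 6 h. The median offsets of left-hand A runs in A3B KO were -169.0, -162.0 and -154.5 bp with DMSO, at 2 h and at 6 h, and -158.0 bp in WT at 2 h. The offset of the 2 strands differs in size and in spread, and how the summit was placed within a peak was not tested.

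**Figure D3:**
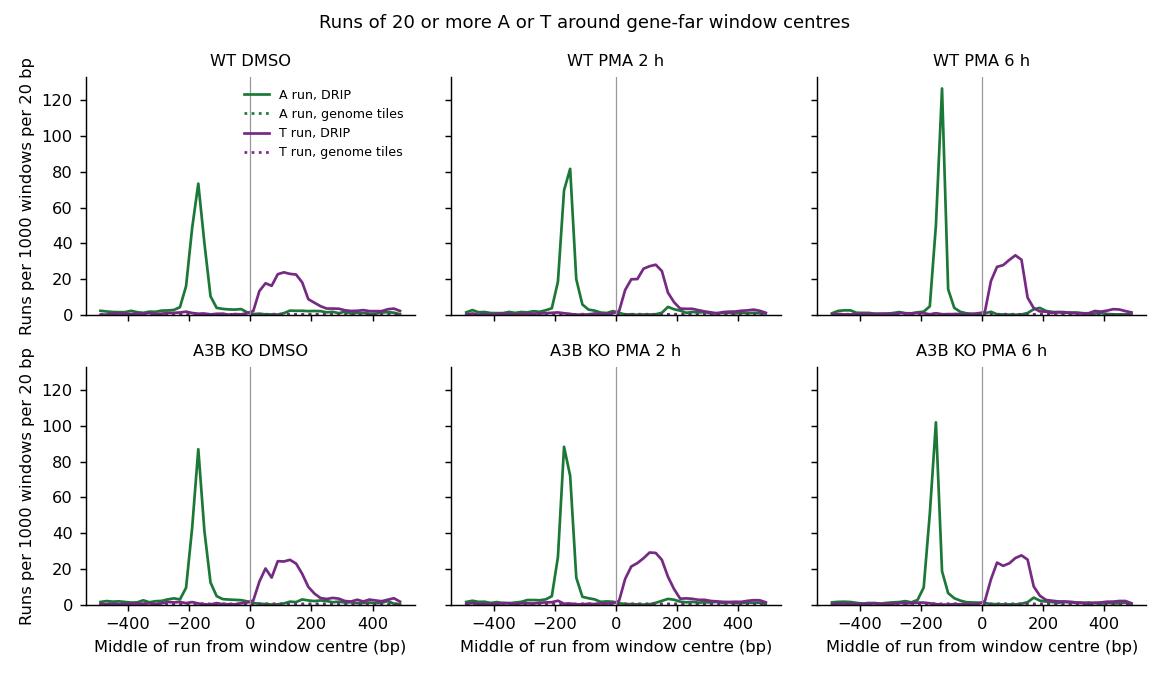
For each of the 6 DRIP lists, the lines count A runs (green) and T runs (purple) of 20 or more bases per 1000 gene-far windows, by the distance in bp from the window centre to the middle of the run, in steps of 20 bp. A runs form a narrow peak left of the centre and T runs a broad one right of it in all 6 lists, while genome tiles (dotted) are flat near 0.

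A conserved stretch of the Alu element, searched on either strand, was in 15.4% of gene-far windows in WT with DMSO and in 13.6% to 14.8% of those in the other 5 lists, against 4.35% of gene-far tiles. Gene-far windows with a run held it in 14.7% to 18.4% of cases and those without in 12.5% to 13.96%. Genome tiles with a run held it in 22.9% of cases and those without in 3.97%. Gene-far windows had a median GC content of 43% to 44%, against 45.2% to 46.8% for the other windows and 38.6% for gene-far tiles. A G-quadruplex motif, taken as 4 runs of at least 3 G joined by 1 to 7 bases on either strand, was in 5.45% to 6.91% of gene-far windows and 7.69% to 11.3% of the others, against 3.42% of gene-far tiles. The trinucleotides TCA and TCT, the preferred context of A3B, counted on both strands, occurred at a median of 39 to 40 per gene-far window and 41 per tile.

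GAA triplet repeats were rare and far above the genome. At least 8 copies of GAA or TTC in any phase were found in 73 gene-far windows of WT with DMSO (0.697%, Wilson 0.555 to 0.875) and in 0.428% to 0.650% of gene-far windows of the other lists. Such repeats were in 250 of 1549875 gene-far tiles (0.0161%), in 0.186% to 0.221% of windows in or near genes and in none of the gene-far anti-GFP regions (0 of 503, 0 of 447 and 0 of 438, with Wilson upper limits of 0.758%, 0.852% and 0.869%). The copy at chr7:84690906-84691446, 198 kb from SEMA3A, a secreted semaphorin gene, had fold enrichments of 11.7, 22.6 and 21.8 in the DMSO, 2 h and 6 h lists of WT and 15.1, 16.9 and 12.7 in A3B KO. No anti-GFP region overlapped it, and it is an example rather than the strongest copy.

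Satellite sequence held the highest folds of all. Windows with at least 5 copies of GGAAT on either strand were 2.83% of gene-far windows in WT with DMSO (296 windows), 2.21% at 2 h and 1.29% at 6 h, and 1.83%, 1.47% and 1.55% in A3B KO, against 0.419% of gene-far tiles. Their median fold was 3.801 to 4.397, below that of run-bearing windows, but their highest reached 120.94. Of the 30 gene-far loci with the highest median fold among those called in all 6 lists, 20 were satellite. Those among the 10 highest all lay in 1 cluster, chr4:49085812-49158664, so they are neighbouring pieces of 1 stretch. At the strongest, chr4:49131503-49135665, the fold was 96.1, 115.5 and 78.7 in WT with DMSO, at 2 h and at 6 h, and 82.4, 86.2 and 99.03 in A3B KO. Anti-GFP ChIP–seq regions lay there as well, 2 without doxycycline and 1 in each list with doxycycline. Among all gene-far anti-GFP regions satellite windows made up 27.2% without doxycycline (137 of 503). They made up 26.2% with doxycycline and DMSO (117 of 447) and 17.6% with doxycycline and PMA (77 of 438). How reads that match several copies were placed is not given in the sources used here, so a fold there may belong to several copies of the repeat.

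**Figure D4:**
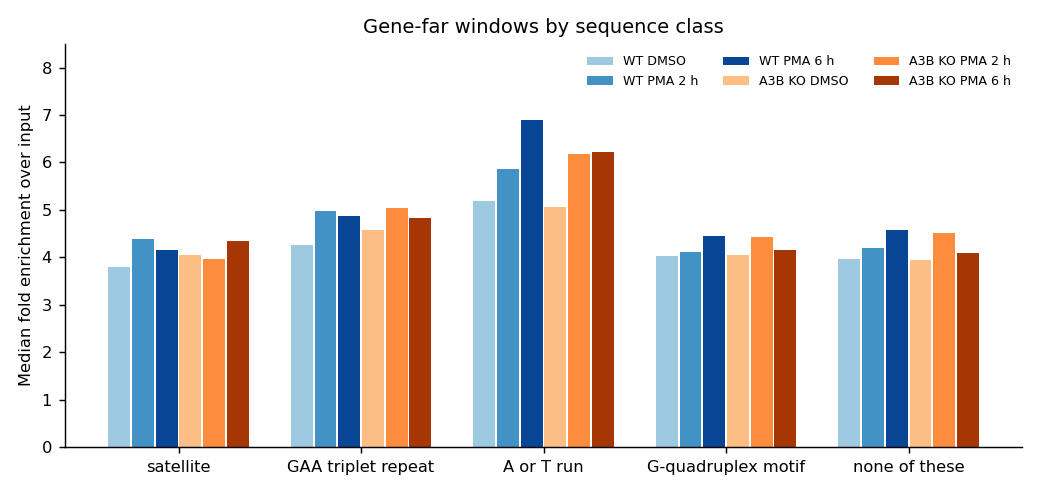
Bars give the median fold enrichment over input of gene-far windows in each DRIP list by sequence class, where a window is placed in the first class that fits, from left to right. Windows with an A or T run had the highest median in all 6 lists, from 5.07 to 6.90, and those with none of these features had 3.95 to 4.57.

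The windows of the 6 lists were merged where they overlapped into 250966 loci, of which 37821 were gene-far and 262 had windows on both sides of 10 kb and were left out. Gene-far loci were less often called in every list: 8.69% were called in all 6 (3288 loci), against 11.6% of all loci, and 42.5% in a single list, against 38.4%. The share with a run rose with the number of lists, from 31.8% of gene-far loci called in 1 list to 56.0% of those called in all 6. Of these 3288 loci, 1840 had a run and 79 were satellite.

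With PMA, gene-far windows were more often without a partner in the DMSO list of the same line than windows in general. In WT at 2 h, 55.8% of gene-far windows (8790 of 15757, Wilson 55.0 to 56.6) overlapped no DMSO window, where 48.6% of all windows overlapped none. In A3B KO at 2 h the share was 53.2% (8457 of 15888, 52.5 to 54.0), where 48.3% of all windows had no partner. At 6 h it was 64.8% in WT (16497 of 25474, 64.2 to 65.3), where 56% of all windows had no partner, and 61.7% in A3B KO (15424 of 25006, 61.1 to 62.3), where 54.6% of all had none. In the other direction the lines differed. Gene-far windows of WT with DMSO lacked a partner at 2 h in 36.1% of cases (3776 windows), where all windows did in 39.5%. In A3B KO this was 39.9% (4790 windows), where all windows did in 38.3%. At 6 h the shares were 24.9% in WT (2605 windows), where 29.9% of all windows had no partner, and 26.6% in A3B KO (3185 windows), where 27.4% of all had none. Both comparisons with DMSO use the same DMSO library of each line.

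Loci called in all 4 PMA lists and in neither DMSO list numbered 939 among gene-far loci, which is 2.48% (Wilson 2.33 to 2.64), where 2.29% of all loci had this pattern. The reverse pattern, both DMSO lists and no PMA list, was seen at 84 gene-far loci (0.222%, 0.179 to 0.275), where 0.736% of all loci had it. A run was found in 52.1% of the 939, where 47.7% of gene-far loci called in any 4 lists had one. It was found in 30.95% of the 84, where 41.5% of gene-far loci called in any 2 lists had one. Another 2098 gene-far loci were called in both 6 h lists alone (5.55%), where 4.49% of all loci were. Both 2 h lists alone had 267 gene-far loci (0.706%), where 0.934% of all loci were called.

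Loci called in a pair of lists were ranked in each by their highest fold, and the log2 ratio of ranks is above 0 where a locus stands higher in the first list named. Gene-far loci stood slightly higher with PMA. The median was 0.08 for WT at 2 h against DMSO over 5833 gene-far loci and 0.01 over all 49216 loci, and 0.04 against 0.00 in A3B KO. At 6 h it was 0.08 against 0.01 in WT and 0.11 against 0.01 in A3B KO. A rank at least 2-fold higher was reached by 1102 gene-far loci in WT at 2 h (18.9%), where 17.1% of all loci reached it, and a rank at least 2-fold lower by 765 (13.1%), where 16.3% of all did. In A3B KO at 2 h these were 1097 (17.1%), where 16.7% of all loci did, and 883 (13.8%), where 16.5% did. At 6 h 1350 gene-far loci stood at least 2-fold higher in WT (19.5%), where 17.5% of all did, and 1500 in A3B KO (19.1%), where 16.3% did. The shift moved with the runs: in gene-far loci with a run the median was 0.18 in WT and 0.16 in A3B KO at 2 h, and 0.27 in both lines at 6 h. In gene-far loci without a run it was 0.02, -0.03, -0.02 and 0.02 for the same 4 comparisons. All loci with a run, gene-far or not, had medians of 0.15 and 0.14 at 2 h and 0.25 and 0.23 at 6 h.

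Between A3B KO and WT, gene-far windows also found partners less often. With DMSO, 52.9% of gene-far windows of A3B KO (6343 of 11991, Wilson 52.0 to 53.8) had no WT partner, where 44.3% of all windows had none, and 45.8% of gene-far WT windows (4793 of 10474) had no KO partner, where 40.6% of all had none. At 2 h the shares were 43.4% for A3B KO, where 41.3% of all windows had none, and 42.4% for WT, where 36.5% had none. At 6 h they were 37.2% for A3B KO, where 35.7% had none, and 36.3% for WT, where 32.1% had none. Loci called in all 3 KO lists and in no WT list numbered 190 among gene-far loci (0.502%), where 0.559% of all loci had this pattern. The opposite pattern was seen at 106 gene-far loci (0.280%), where 0.296% of all had it. The median log2 rank ratio of gene-far loci, A3B KO against WT, was -0.01 with DMSO, -0.07 at 2 h and 0.00 at 6 h, against 0.00, -0.01 and 0.00 for all loci. At 2 h, 1363 gene-far loci stood at least 2-fold lower in A3B KO (17.4%), where 14.9% of all did, and 1067 at least 2-fold higher (13.6%), where 14.8% of all did.

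Gene-far windows fell into 19060 clusters when chained over gaps of up to 10 kb. Clusters with windows in all 6 lists numbered 3144 and held 52.0% of gene-far windows, and 5387 clusters were a single window. Clusters were chosen by their window counts, so those counts are a description. The genes that name them are the nearest protein-coding genes on each side, at any distance. The cluster with the most windows was the chromosome 4 satellite at chr4:49085812-49158664, between CWH43 and DCUN1D4, with 77, 84 and 113 windows in WT with DMSO, at 2 h and at 6 h, and 71, 73 and 86 in A3B KO. It also held 64 anti-GFP regions without doxycycline. Next came a satellite stretch at chr17:26784930-26884599 with 435 windows, 430 of them satellite, and a pericentromeric stretch at chr16:34597630-34930988 with 295. A stretch at chr21:7915816-7958102, all of it satellite, had 43, 58 and 19 windows in WT and 28, 14 and 48 in A3B KO.

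Other large clusters lay between named genes. The stretch between SULT2A1, a steroid sulfotransferase gene, and BSPH1 at chr19:47896789-47955000 had 252 windows, with 43, 37 and 52 in WT and 38, 35 and 47 in A3B KO. It holds 9 RefSeq genes of the SNAR family, small RNAs that GENCODE 44 does not list there as genes, and 23 anti-GFP regions without doxycycline lay in it. Between CD83 and JARID2, the gene of a cofactor of the Polycomb repressive complex, there were 162 windows over 109 kb, 23, 22 and 34 in WT and 21, 30 and 32 in A3B KO. Between MYL10 and CUX1, a homeobox transcription factor gene, there were 162 over 114 kb, 20, 26 and 43 in WT and 18, 26 and 29 in A3B KO. Runs were in 41.4% and 38.9% of the windows of these 2 clusters. A stretch of 41.4 kb between MRPL23 and IGF2, the insulin-like growth factor 2 gene, had 159 windows and runs in 2 of them. It had 27, 30 and 26 windows in WT and 23, 23 and 30 in A3B KO, and 22 of its windows were satellite.

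The clusters with the largest gain from DMSO to 2 h of PMA, summed over both lines, lay beside the following genes. Between KMT2C, a histone H3 lysine 4 methyltransferase gene, and XRCC2, a homologous recombination gene, windows went from 20 to 29 in WT and from 11 to 28 in A3B KO. Between MYO10, a filopodial myosin gene, and BASP1 they went from 14 to 20 and from 17 to 36. Upstream of BCOR, a transcriptional corepressor gene, they went from 9 to 16 in WT and from 9 to 17 in A3B KO, and reached 25 and 20 at 6 h. Upstream of GPCPD1 they went from 9 to 20 and from 11 to 14, between MED13, a Mediator gene, and EFCAB3 from 12 to 19 and from 5 to 13, and beside PTPRS, a receptor phosphatase gene, from 12 to 24 and from 20 to 23. No anti-GFP region lay in any of these 6 clusters, chosen for this gain. Gene-far anti-GFP regions numbered only 438 to 503 a list for 19060 clusters, and the CD83 to JARID2 and MYL10 to CUX1 clusters held none either. In all 6 clusters chosen for gain, both lines had more windows at 2 h than with DMSO. Over the same step all gene-far windows went from 10474 to 15757 in WT and from 11991 to 15888 in A3B KO. The gains beside KMT2C and MYO10 in WT, and beside GPCPD1 and PTPRS in A3B KO, were no larger in proportion than that. The gains between GOLGA8A and GOLGA8B, from 1 to 15 in WT and from 12 to 13 in A3B KO, and in the chromosome 16 stretch, from 41 to 40 and from 26 to 56, came almost wholly from 1 of the lines.

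Losses were smaller. Between LAPTM5, a lysosomal membrane protein gene, and SDC3, a syndecan gene, windows went from 17 to 8 in WT and from 15 to 10 in A3B KO. At chr13:55593349-55664423, 2541.3 kb from OLFM4 and 1476.5 kb from PRR20A, they went from 13 to 1 and from 3 to 1, and were 2 and 20 at 6 h. Between BCKDHB and TENT5A, 454 and 661 kb away, they went from 2 to 0 and from 8 to 0. The clusters with the most windows in A3B KO over WT were MYO10 to BASP1, with 24 more over the 3 conditions, a second pericentromeric stretch at chr4:49261466-49332767 with 21 more, a stretch beside ADGRL2 with 20 more, a stretch between NBPF4 and NBPF6 with 18 more and a stretch beyond EPHA3 with 16 more. Beside ADGRL2 there were 1, 0 and 3 windows in WT with DMSO, at 2 h and at 6 h, and 2, 6 and 16 in A3B KO. In the stretch 442 kb beyond EPHA3, an ephrin receptor gene, there were 0, 0 and 2 in WT and 5, 6 and 7 in A3B KO. Among the named clusters with no satellite window, the largest surplus in WT was between MIER3 and GPBP1, with 4, 7 and 22 windows in WT and 1, 4 and 5 in A3B KO.

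Gene-far windows whose nearest protein-coding gene belonged to a PMA response list were few. Of 32 immediate early genes, which growth factors and PMA induce within minutes, 18 had gene-far sequence nearest to them and 15 of these had such windows, where 6197 of 8233 protein-coding genes with gene-far sequence did. They had 47, 64 and 107 in WT with DMSO, at 2 h and at 6 h, and 51, 73 and 90 in A3B KO. KLF4, a zinc finger transcription factor gene, had 11, 20 and 34 in WT and 12, 28 and 28 in A3B KO. KLF6 had 12, 13 and 16, and 9, 12 and 21. Of 15 MAPK feedback genes, 14 had gene-far sequence and 12 had windows, 43, 64 and 91 in WT and 49, 78 and 103 in A3B KO. SPRY2, an inhibitor of receptor tyrosine kinase signalling, had 11, 19 and 32 in WT and 13, 23 and 33 in A3B KO, and SPRY4 had 6, 11 and 11, and 7, 13 and 15. As a share of gene-far windows, the immediate early list was 0.449%, 0.406% and 0.420% in WT and 0.425%, 0.459% and 0.360% in A3B KO, where 0.230% of the gene-far genome lies nearest to these genes. The MAPK feedback list was 0.411%, 0.406% and 0.357% in WT and 0.409%, 0.491% and 0.412% in A3B KO, where 0.315% of the gene-far genome lies. NF-κB targets (25 genes) had 7 to 19 windows a list, or 0.0584% to 0.0955% of gene-far windows, where 0.0367% of the gene-far genome lies. Basal epithelial genes (23) had 12 to 32 windows, or 0.114% to 0.138%, below their 0.202% of the gene-far genome. Adhesion and protease genes (23) had 6 to 26, or 0.0500% to 0.134%, where 0.0502% of the genome lies, and genes of other tissues (20) had 5 to 14, or 0.0378% to 0.0550%, where 0.0416% lies.

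The AP-1 site TGAGTCA or TGACTCA, bound by the Fos and Jun factors that PMA induces, was about as frequent in gene-far windows as in the gene-far genome. It was in 6.39% of gene-far windows in WT with DMSO (Wilson 5.93 to 6.87), 6.94% at 2 h (6.55 to 7.34) and 6.92% at 6 h (6.62 to 7.24), and in 7.16%, 7.29% and 6.94% in A3B KO. Gene-far tiles held it in 6.97% of cases and the other windows in 6.57% to 6.88%. Among gene-far windows at 2 h in WT it was in 7.28% of those with no DMSO partner (6.76 to 7.84) and 6.50% of those with one (5.95 to 7.11), and in A3B KO in 7.66% and 6.88%. For windows in or near genes at 2 h these shares were 7.07% and 6.46% in WT, and 7.06% and 6.72% in A3B KO. The TEAD site GGAATGT, whose letters overlap the GGAAT satellite, was in 5.37% to 6.19% of gene-far windows and 10.1% of gene-far tiles. Neither share says which factor was bound.

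A3B-eGFP was seldom found at gene-far R-loops. Of 10474 gene-far WT windows with DMSO, 121 overlapped an anti-GFP region of doxycycline-treated cells (1.16%, Wilson 0.968 to 1.38), against 2.79% of windows in or near genes. Of these 121, 83 also overlapped a region called without doxycycline, and 47 were satellite. The 38 that remained were 0.363% of gene-far windows (0.264 to 0.498), against 2.02% of the other windows. At 2 h of PMA, 152 of 15757 gene-far windows overlapped a region (0.965%, 0.824 to 1.13), against 2.64% of the others. Of them 58 had no overlap with the list without doxycycline (0.368%, 0.285 to 0.476), against 1.96% of the others. That list is from cells with DMSO, since there is no library with PMA and without doxycycline. Without doxycycline, 165 gene-far windows of WT with DMSO overlapped a region (1.58%), which is more than with it. Gene-far regions were 12.5% of the anti-GFP list without doxycycline (503 of 4040, 11.5 to 13.5), 7.52% with doxycycline and DMSO (447 of 5945, 6.88 to 8.22) and 6.15% with doxycycline and PMA (438 of 7122, 5.62 to 6.73). The DRIP and ChIP libraries came from different cells, so an overlap joins positions and not molecules.

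The intergenic control of the study's own DRIP–qPCR did not meet the 10 kb rule. Its primers agtccataagcagccaaggt and aagacggggacagcattagt matched chr6:26152744-26152909 in hg38, a product of 166 bp that lies inside an unverified transcript unit of GENCODE 44, ENSG00000291336, and 3503 bp from H1-4, a linker histone gene. The nearest DRIP window centre was 4025 to 4047 bp away in all 6 lists, so the product itself overlapped no window.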

How the data were processed

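DRIP–seq and anti-GFP ChIP–seq lists were analysed for 9 immunoprecipitations of 18 samples, each called against its own input, which has no list of its own. The authors trimmed paired reads with Cutadapt 1.13, aligned them to hg38 with STAR 2.6.1d, filtered for proper pairs (SAMtools 1.3.1), marked and dropped duplicates (Picard), left out the exclusion list (bedtools 2.29.2), and called peaks with MACS2 at q of 0.01. Version 2.2.6 of MACS2 is in the submitters' processing notes, and the methods give another version. The methods give paired-end mode, while the deposited peak names carry an extension size of 200. The deposited pileup is a signal, the number of fragments at the summit with no stated scaling between libraries. The deposited fold enrichment is a ratio of that signal to the local background of the input. The deposited −log10 q value comes from the authors' test of each immunoprecipitation against its input. No total of reads is in the lists, so depth is unknown. Whether window starts count from 0 or 1 is not given, which could move a position by 1 bp.

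Windows of 500 bp on chromosomes 1 to 22 and X were used, and 4 to 13 mitochondrial windows a list were left out. Genes came from GENCODE 44, where the authors used GENCODE 31. Gene-far windows had a midpoint more than 10 kb from every gene. Windows overlapping by 1 bp counted as partners, and loci are windows of the 6 lists merged where they overlap. Sequences and features came from hg38, with tiles of 500 bp over the gene-far genome as background. The repeat-masked share that had been planned was not computed, since the reference letters are not soft-masked. Clusters named are the 8 with the most windows, the 8 with the largest gain and the 5 with the largest loss at 2 h of PMA, and the 5 with the largest difference each way between A3B KO and WT. Loci named are the 10 of highest median fold among those in all 6 lists, and strong loci of each sequence class, some of which are not reported here. The members and gene lists were chosen with earlier results of these data known. Every condition is 1 library, so no test was made. Python 3.11.15, numpy 2.4.6, pandas 2.3.3 and scipy 1.17.1 were used, and the counting steps were tested on simulated data. Alternatives varied the threshold, list length, overlap, ranked value and width searched.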

Additional observations from a re-analysis of the deposited data

Results flagged for a closer look

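In 2 clusters the number of gene-far windows moved in opposite directions in WT and A3B KO from DMSO to 2 h of PMA, with 1 library on each side, so the difference was not tested. In the satellite stretch on chromosome 21 that lies 2563.5 kb before the start of TPTE, windows changed by 15 in WT, from 43 to 58, and by -14 in A3B KO, from 28 to 14. Between GOLGA6L4 and ZSCAN2 on chromosome 15 they changed by 5 in WT, from 13 to 18, and by -15 in A3B KO, from 16 to 1. At 6 h the counts were 19 in WT and 48 in A3B KO in the first stretch, and 13 and 14 in the second. All 210 windows of the first are satellite, and 16 anti-GFP regions without doxycycline lay in the second.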

How the results depend on the processing

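Of 93 values from alternative settings, 38 stayed within the counting interval or spread of the reported value and 55 moved outside it. For the share of gene-far windows, −log10 q of at least 5 gave 15.5% in WT at 6 h and merging windows gave 15.6%, and the strongest 90000 windows gave 15.9% in WT at 6 h, 13.4% in A3B KO at 2 h and 15.2% at 6 h. For windows without a partner, an overlap of 250 bp gave 59.6%, 49.5% and 42.4% for A3B KO without WT with DMSO, at 2 h and at 6 h, 61.8% and 70.8% for WT at 2 h and 6 h without DMSO, and 59.4% and 67.4% for A3B KO. With −log10 q of at least 5 in both lists these were 56.5% and 47.1% for A3B KO without WT with DMSO and at 2 h, 60.6% and 70.9% for WT, and 59.4% and 68.2% for A3B KO. With the strongest 90000 windows they were 51.9%, 44.8% and 41.5%, then 53.2% and 62.2%, then 51.8% and 56.8%. No share over all windows is given at these settings. Whether gene-far windows still differed from all windows there is therefore not known. For the median log2 rank ratio, ranking by pileup gave -0.027 at 2 h and -0.035 at 6 h for A3B KO against WT, 0.0525 and 0.11 for WT at 2 h and 6 h against DMSO, and 0.0787 for A3B KO at 6 h, and ranking by −log10 q gave -0.0171 for A3B KO against WT at 6 h. The AP-1 site in the central 200 bp was in 2.62%, 2.90% and 3.04% of WT windows and 2.74%, 3.34% and 2.91% of A3B KO windows, where 2.82% of tiles held it, since less sequence was searched. Overlap with A3B-eGFP was 0.897% with DMSO and 0.654% at 2 h for 250 bp, and 0.812% and 0.622% for anti-GFP −log10 q of at least 5. Alternatives chosen after seeing the data were run for the share with an A or T run. With −log10 q of at least 5 it was 48.8%, 48.8% and 46.4% in WT and 50.03%, 50.8% and 45.7% in A3B KO. With 1 window per peak it was 42.4%, 43.7% and 43.98% in WT and 42.5%, 45.7% and 42.3% in A3B KO. Without satellite windows it was 41.0% in WT with DMSO and 41.8% at 2 h. The cause of the other changes was not tested. No paired analysis was possible because each condition has 1 library and no result comes from a test.

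Sequencing depth is unknown, so list length and depth cannot be told apart, and a window absent from a list is not shown to be absent from the cells. The Wilson intervals treat windows as independent, which neighbouring windows of a peak are not.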
